A study of Drosophila melanogaster with 24 samples.

Results

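The genes described here belong to the JAK/STAT pathway of Drosophila melanogaster: the ligands upd1 and upd2, the receptor dome, the receptor-like gene et, the transcription factor Stat92E and the target TotC. They were chosen by name, as the probe sets that the array annotation gives to these genes. Each gene had 1 probe set that named it alone: 1633968_at for upd1, 1623718_at for upd2, 1632381_at for dome, 1636415_at for et, 1635827_s_at for Stat92E and 1639323_at for TotC. These 6 genes stood among 11982 named genes and 18769 tested probe sets in all.

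The study mixed populations of S2 cells, a hemocyte-like line of this fly, and measured RNA on arrays after 45 minutes of contact. The 8 mixes, with the samples used in the tests, were S2-NFull/S2-Dl (n = 1), S2-NDCterm/S2-Dl (n = 2), S2/S2-Dl (n = 3), S2-NFull/S2-DlDI (n = 1, from 2 averaged arrays), S2/S2-DlDI (n = 2), S2-NFull/S2 (n = 1), S2/S2-NDCterm (n = 2) and S2/S2 (n = 3). Dl cells expressed Delta, DlDI cells expressed Delta without its intracellular part, and NFull and NDCterm are line names that the labels do not explain, read here as forms of Notch, the receptor of Delta. Each replicate pooled 2 independent samples, per the series' design text. Which promoter drives each protein, and whether a line is a single clone, are points not given in the sources used here. Each array read the RNA of both partners at the same time, and a difference between lines and an answer to contact cannot be told apart in such a signal. Fewer cells of a type and less RNA per cell cannot be told apart either.

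In flies, JAK/STAT signalling starts when a secreted Unpaired cytokine binds Domeless, the product of dome. The JAK kinase Hopscotch then phosphorylates Stat92E, which enters the nucleus and switches on target genes, among them its own inhibitors of the SOCS family. In blood cells the pathway is known for its roles in hemocyte proliferation, lamellocyte formation and the response to stress and infection. The question asked of these genes was whether any of them differed between mixes with and without a Notch form, Delta or truncated Delta.

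None of the 6 genes passed the test in any comparison. Over 14 comparisons this made 84 tests with limma, of which 0 had a Benjamini-Hochberg adjusted p below 0.05 (lowest 0.273) and 4 had an unadjusted p below 0.05. Stat92E and dome had a clear signal on every array and differed little between mixes. upd2 lay near the lower end of the scale and varied most, and upd1, et and TotC stayed at very low signals in all mixes. Values below are array signals on the authors' linear scale. Changes are differences of log2(signal + 32), so they understate the change of a signal near or under 32. All 95% intervals come from limma and are not adjusted for the number of tests.

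Delta itself separated the samples in the fit by label. Its signals were 11070 to 12968 in the samples with Dl cells and 3.35 to 41.3 in the others in the fit, DlDI mixes included. Array medians ran from 9.82 to 14.2 on 23 of the 24 arrays, and S2/S2 replicate 2 stood apart at 20.9, so its low signals lay higher in general. The deposited titles gave 5 array pairs the same mix and replicate number. Only 1 of these pairs was closer than any pair of separate replicates in overall profile and matched in Delta, and it was averaged. The 8 arrays of the other pairs, 3 of which held 1 array with high and 1 with low Delta signal, were left out of the tests. The source field names embryonic epidermis while titles and design name S2 cells. In S2/S2, 8 of 11 plasmatocyte markers had a mean signal over 100 (median 287) and 0 of 11 epidermal markers did (median 5.33). Hml and Sr-CI, also blood cell genes, were at 8.79 and 1.74. Of other lists, 0 of 6 crystal cell and lamellocyte, 1 of 5 neuronal, 0 of 4 muscle, 0 of 4 fat body and 1 of 4 germline markers were over 100.

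Among the ligands, upd1 encodes the founding Unpaired cytokine, needed for segmentation in the embryo, and upd2 a relative that in adult flies also carries a fat body signal. The genes lie close together on the X chromosome, with 2 protein-coding genes between them in the RefSeq table, and upd3, the other Unpaired gene, is the direct neighbour of upd1.

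upd1 signal ranged from 0.594 to 13.3 over the 24 arrays, with a median of 1.88. It was below the array's own median on 23 of 24 arrays, the exception being S2/S2-NDCterm replicate 3 at 13.3. Mix means in the fit ran from 1.02 in S2-NFull/S2-DlDI to 7.79 ± 7.72 in S2/S2-NDCterm (SD, n = 2). The 14 log2 changes lay between -0.24 and 0.08, and every 95% interval stayed between -0.54 and 0.50. The offset of 32 exceeded every upd1 value, so a fall in upd1 RNA would hardly show on this scale.

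upd2 was above the array's own median on 19 of 24 arrays and reached 32 on 5 of them. Its signal was 12.7 in S2-NFull/S2-Dl. S2-NDCterm/S2-Dl gave 34.0 and 47.1, and S2/S2-Dl gave 27.5, 32.4 and 29.8. The lowest of these 5 samples (27.5) lay just above the highest sample of the other mixes in the fit (26.4, in S2/S2). This grouping leaves out S2-NFull/S2-Dl and was seen in the values. Its share over all probe sets was not counted. It did not hold on the left-out arrays of S2-NDCterm/S2-Dl replicate 2. Array 1, with high Delta signal (11382), read 23.4, and array 2, with low Delta signal (13.9), read 34.0. The averaged arrays of S2-NFull/S2-DlDI gave 3.34, and S2/S2-DlDI gave 24.2 and 20.3. S2-NFull/S2 was at 25.8 and S2/S2-NDCterm at 25.0 and 23.4. S2/S2 spread widest, at 1.21, 26.4 and 6.50 in replicates 1, 2 and 3, and its highest value came from the array with the high median.

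In S2/S2-Dl against S2/S2, upd2 had a log2 change of 0.56 ± 0.20 (SE; 95% interval 0.12 to 1.00), with an unadjusted p of 0.0173 and a limma adjusted p of 0.273 over all probe sets. All 3 S2/S2-Dl samples lay above all 3 S2/S2 samples. Only upd2 of the 6 genes was free of overlap in this way, while 14.1% of all probe sets were. Without S2/S2 replicate 2, the array with the high median, the log2 change was 0.79 and the limma adjusted p 0.0461, the single call of any of these genes in 1774 repeated values. Without S2/S2 replicate 1 the change was 0.38 (unadjusted p = 0.0922, limma adjusted p = 0.409), and without S2/S2 replicate 3 it was 0.49 (unadjusted p = 0.0552, limma adjusted p = 0.333). With quantile normalization, which gives all arrays 1 distribution of signals, the change was 0.64 (unadjusted p = 0.00162, limma adjusted p = 0.0802). The part of the high low-end signals of S2/S2 replicate 2 in this result was not tested otherwise. With the replicate number as a block the change was again 0.56 and the limma adjusted p was 0.160. A larger or smaller offset gave 0.18 or 1.19, since most upd2 signals were under 32.

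The single upd2 value of S2-NFull/S2 and all those of S2/S2-NDCterm or S2/S2-DlDI also lay above the S2/S2 mean of 11.4 ± 13.3 (SD, n = 3). The log2 change against S2/S2 was 0.37 in S2/S2-DlDI (95% interval -0.13 to 0.86), 0.46 in S2-NFull/S2 (-0.17 to 1.08) and 0.42 in S2/S2-NDCterm (-0.08 to 0.91). Quantile normalization gave 0.52 in S2/S2-DlDI (limma adjusted p = 0.499) and 0.55 in S2/S2-NDCterm (limma adjusted p = 0.324). These comparisons and that of S2/S2-Dl share the S2/S2 samples, so their common sign rests in part on the same 3 values. S2/S2-Dl against S2/S2-DlDI, which leaves S2/S2 out, gave 0.19 (-0.30 to 0.68).

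Next to NFull cells the upd2 changes on adding Delta or DlDI cells had the opposite sign. S2-NFull/S2-Dl set against S2-NFull/S2 gave -0.37 (95% interval -1.13 to 0.39), and S2-NFull/S2-DlDI set against S2-NFull/S2 gave -0.71 (-1.47 to 0.05), with 1 sample in each mix. Over the alternatives they ran from -0.71 to -0.13 and from -1.58 to -0.08. Both changes and the interaction below share the single S2-NFull/S2 sample (25.8). Every alternative kept this sample, so these ranges cannot show how far the sign rests on it. The left-out arrays read 20.4 and 11.9 in S2-NFull/S2. Those of S2-NFull/S2-DlDI read 39.7 and 22.9 with high Delta signal, and 19.9 and 16.0 with lower Delta signal. The interaction, which asks whether adding Delta cells acts differently beside NFull cells than beside plain S2 cells, was -0.93 ± 0.41 (SE; -1.81 to -0.05). Its unadjusted p was 0.0406 and its limma adjusted p 0.936, so a difference between these backgrounds did not pass. With NDCterm cells the corresponding interaction was -0.19 (-0.89 to 0.50). In 7 of 14 comparisons the upd2 interval stayed between -1 and 1 on the log2(signal + 32) scale, and in the others it reached further. At upd2 signals these bounds stand for more than a 2-fold change of the signal itself.

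**Figure D1:**
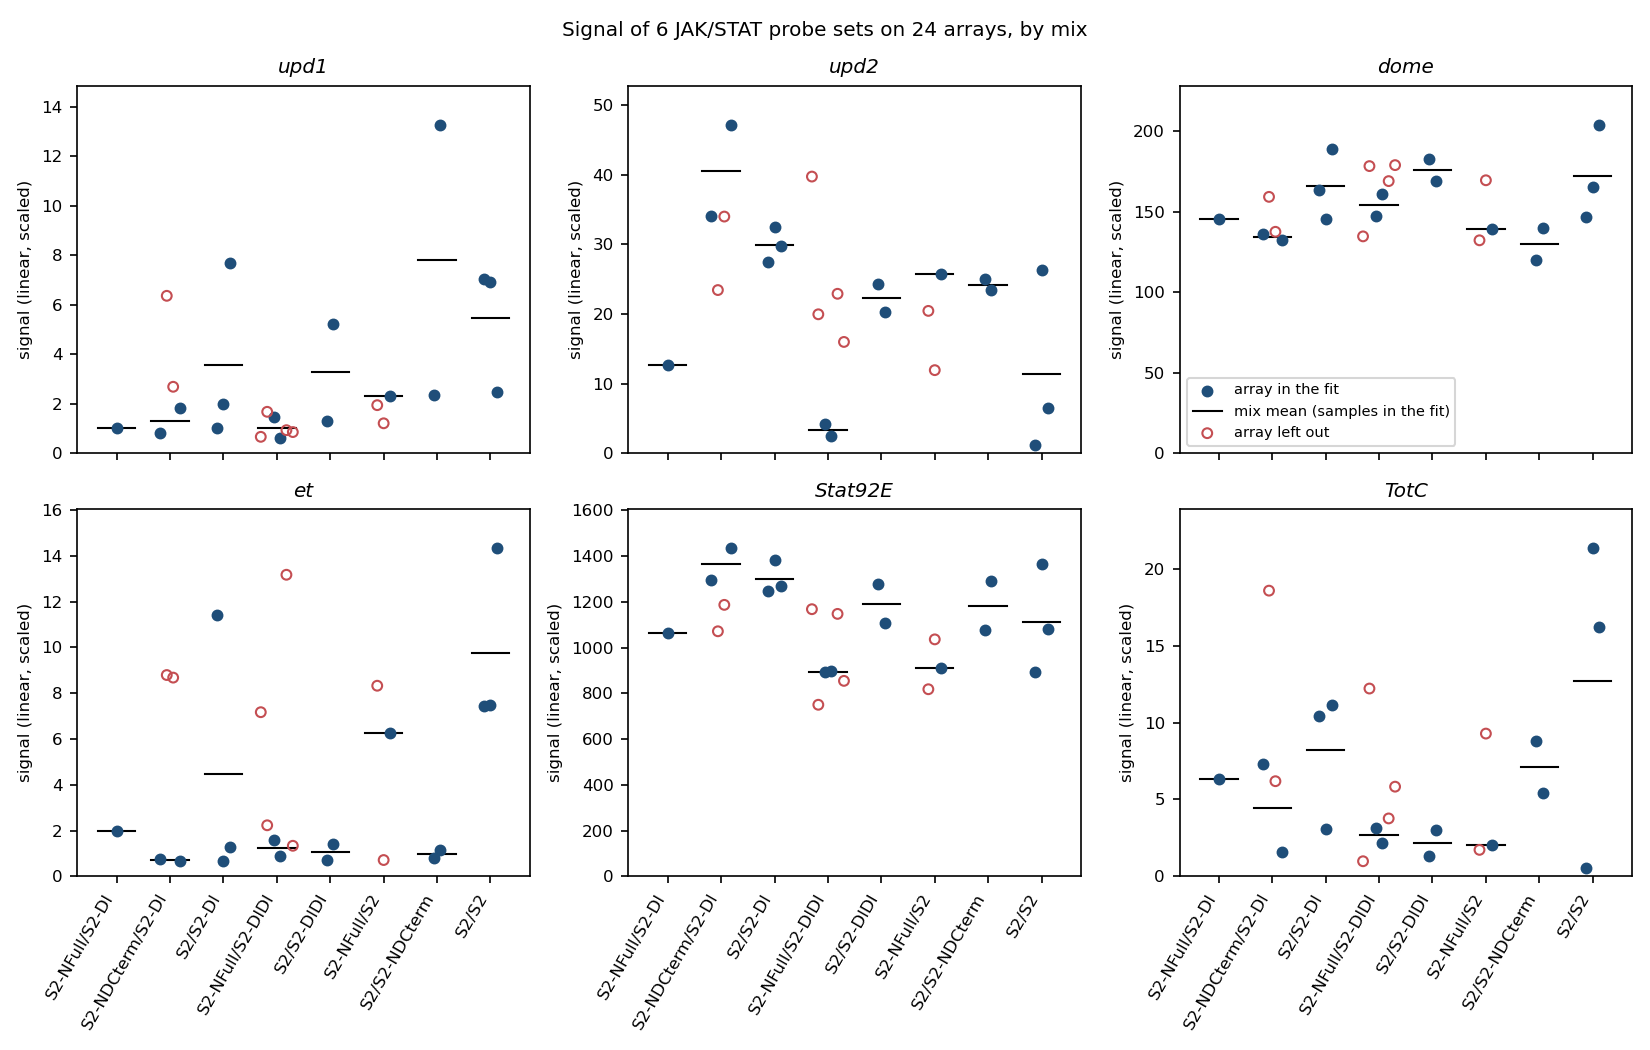
Signal of the 6 JAK/STAT probe sets on each of the 24 arrays, on a linear scale that starts at 0 and differs between panels. Filled points are arrays in the fit, open points the 8 left-out arrays and lines the mean of a mix over its samples in the fit. Stat92E and dome vary within a narrow band in all mixes, and upd2 spreads from 1.21 to 26.4 within S2/S2.

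The receptor genes lie side by side on the X chromosome, with no other protein-coding gene between them in the RefSeq table. dome encodes the transmembrane receptor of the Unpaired cytokines. et, also called eye transformer or latran, encodes a shorter relative that dampens signalling in Drosophila.

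dome signal stayed between 120 and 204 on all 24 arrays, a ratio of 1.70 between the highest and the lowest. S2-NFull/S2-Dl had 145, S2-NDCterm/S2-Dl had 136 and 132, and S2/S2-Dl had 164, 145 and 189. The averaged arrays of S2-NFull/S2-DlDI gave 154 and S2/S2-DlDI gave 183 and 169. These values stayed within a narrow band. S2-NFull/S2 was at 139, S2/S2-NDCterm at 120 and 140, and S2/S2 at 147, 166 and 204. Samples of most mixes overlapped, and the lowest mix means belonged to the pair with NDCterm cells.

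S2/S2-NDCterm against S2/S2 gave the largest dome difference among the 14 comparisons, a log2 change of -0.32 ± 0.15 (SE; 95% interval -0.66 to 0.01; limma adjusted p = 0.533). Means were 130 ± 14.2 in S2/S2-NDCterm (SD, n = 2) and 172 ± 29.1 in S2/S2 (SD, n = 3), with no overlap. In S2-NDCterm/S2-Dl set against S2/S2-Dl, where every sample with NDCterm cells also lay below those without, the change was -0.25 (-0.58 to 0.08). Adding Delta cells gave -0.04 beside S2 cells (-0.34 to 0.26), 0.04 beside NDCterm cells (-0.33 to 0.40) and 0.05 beside NFull cells (-0.46 to 0.56). All 14 intervals for dome lay between -0.66 and 0.68.

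et signal ranged from 0.665 to 14.3, with a median of 1.77, and was below the array median on 22 of 24 arrays. S2/S2 held 3 of the 4 highest values in the fit, at 7.46, 7.50 and 14.3. S2/S2-Dl replicate 1 reached 11.4, while replicates 2 and 3 of that mix were at 0.688 and 1.26. In S2/S2-DlDI both samples (0.719 and 1.40) and in S2/S2-NDCterm both samples (0.801 and 1.13) lay below all S2/S2 samples. The log2 changes were -0.33 (95% interval -0.59 to -0.07) in S2/S2-DlDI against S2/S2 and -0.34 (-0.60 to -0.08) in S2/S2-NDCterm against S2/S2, with unadjusted p of 0.0161 and 0.0151 and limma adjusted p of 0.574 and 0.388. These comparisons share the S2/S2 samples, and every et value lay under the offset of 32, so the size of the changes depends on it. A smaller or larger offset gave -0.95 or -0.09 for S2/S2-DlDI. With the replicate number as a block the changes were -0.30 for S2/S2-DlDI (limma adjusted p = 0.464) and -0.38 for S2/S2-NDCterm (limma adjusted p = 0.178).

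Stat92E encodes the STAT transcription factor of the fly, the only STAT protein of this species. Its signal was the steadiest together with that of dome, at 750 to 1434 over the 24 arrays. S2-NFull/S2-Dl had 1065, S2-NDCterm/S2-Dl had 1295 and 1434, and S2/S2-Dl had 1246, 1384 and 1270. S2-NFull/S2-DlDI had 895 as the average of its arrays, and S2/S2-DlDI had 1279 and 1106. The 3 samples with Dl cells beside plain S2 cells lay within a narrow range. S2-NFull/S2 was at 912, S2/S2-NDCterm at 1076 and 1292, and S2/S2 at 895, 1364 and 1079. The spread within S2/S2 thus covered nearly the whole range of the other mixes.

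By mix mean, Stat92E was highest in S2-NDCterm/S2-Dl (1364 ± 98.3), followed by S2/S2-Dl (1300 ± 73.6), S2/S2-DlDI, S2/S2-NDCterm, S2/S2 and then the mixes with NFull cells, S2-NFull/S2-Dl, S2-NFull/S2 and S2-NFull/S2-DlDI. No neighbours in this order differed by more than 0.899 standard errors of their difference. The same held for the other 5 genes, where the largest such gap was 0.981 standard errors, in upd2. Neighbours in a sorted order lie close by construction, and mixes further apart in it differed more, up to the changes given for upd2 and et.

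Adding Delta cells gave a positive Stat92E change against each partner without them. It was 0.24 ± 0.14 beside plain S2 cells (SE; 95% interval -0.06 to 0.54; limma adjusted p = 0.539), 0.20 beside NDCterm cells (-0.16 to 0.57) and 0.22 beside NFull cells (-0.30 to 0.74). These 3 intervals hold 0. Leaving out S2/S2 replicate 1 or 2 moved the value beside plain S2 cells to 0.10 or 0.39. Beside NDCterm cells it ran from 0.07 to 0.33 over the alternatives. Beside NFull cells, with 1 sample in each mix, it ran from 0.008 to 0.29. The left-out S2-NFull/S2 arrays read 818 and 1036, beside 1065 in S2-NFull/S2-Dl. The replicate numbers pair S2/S2-Dl with S2/S2. In that order Stat92E read 1246 and 895 in replicate 1, 1384 and 1364 in replicate 2, and 1270 and 1079 in replicate 3. The share of all probe sets with 1 direction in all 3 pairs was not counted, so these pairs are description only. With the replicate number as a block the same 0.24 had an unadjusted p of 0.0246 and a limma adjusted p of 0.239. In that setting 540 of all probe sets were called, beside 245 without the block. Setting NFull cells in place of plain S2 cells gave -0.28 beside Delta cells (-0.70 to 0.15), -0.40 beside DlDI cells (-0.85 to 0.05; limma adjusted p = 0.967) and -0.26 beside plain S2 cells (-0.68 to 0.17), each with a single NFull sample. The interactions of Delta cells with NFull or NDCterm cells were -0.02 and -0.03. The 14 intervals for Stat92E lay between -0.85 and 0.76, so on this scale a change of 1 in either direction lay outside each of them.

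TotC is a Turandot gene, a family of small secreted stress proteins of which TotA is a known target of JAK/STAT signalling in the fat body. It sits between TotA and TotB on chromosome arm 3R in the RefSeq table. Its signal ran from 0.544 to 21.3 over the 24 arrays, with a median of 5.62, and stayed below 32 on all of them. The lowest and the highest values both came from S2/S2, at 0.544, 21.3 and 16.3 in replicates 1, 2 and 3. S2/S2-Dl samples were at 10.5, 3.06 and 11.1, within that range. The largest changes were -0.36 in S2-NFull/S2 against S2/S2 (95% interval -0.86 to 0.13) and -0.36 in S2/S2-DlDI against S2/S2 (-0.75 to 0.03). With every signal under the offset of 32, the scale compresses differences among these values, and a fall in TotC RNA would hardly show.

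**Figure D2:**
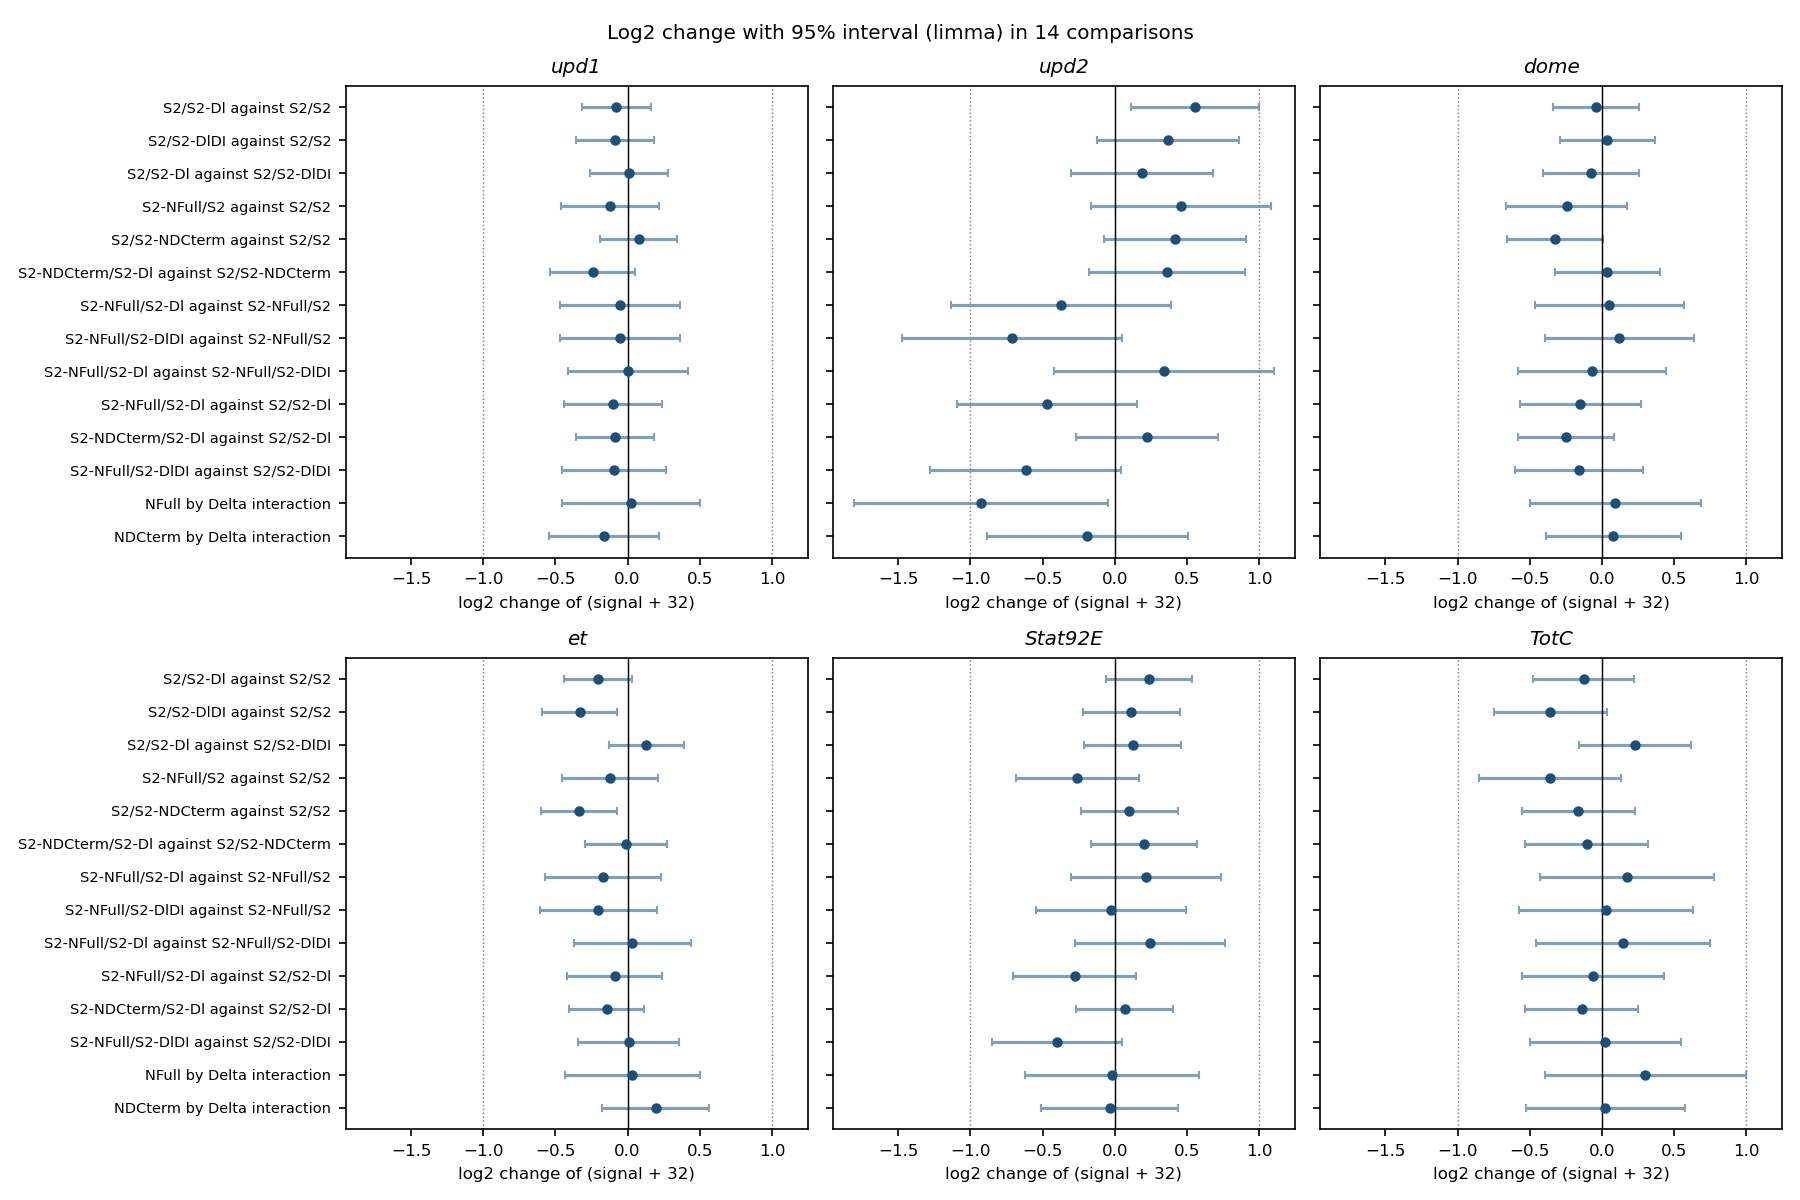
Log2 change of signal + 32 (points) with its 95% interval from limma (bars) for the 6 genes in 14 comparisons, with dotted lines at -1 and 1. Intervals of Stat92E and dome lie inside the dotted lines throughout, and those of upd2 reach from -1.81 to 1.10.

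Read comparison by comparison, the count of called members was 0 of 6 in each, beside a low share of calls among all probe sets. That share was 1.31% for S2/S2-Dl against S2/S2, 0.0746% for S2/S2-DlDI against S2/S2 and 0.639% for S2/S2-Dl against S2/S2-DlDI. For the Notch lines without ligand it was 0.181% in S2-NFull/S2 against S2/S2 and 0.165% in S2/S2-NDCterm against S2/S2. With ligand cells added it was 0.490% for S2-NDCterm/S2-Dl set against S2/S2-NDCterm, 0.293% for S2-NFull/S2-Dl set against S2-NFull/S2 and 0.0213% for S2-NFull/S2-DlDI set against S2-NFull/S2. A count of 0 among 6 is near these shares and says nothing particular about the pathway.

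Of the remaining comparisons, S2-NFull/S2-Dl set against S2-NFull/S2-DlDI had 0.213% of probe sets called, S2-NFull/S2-Dl set against S2/S2-Dl 0.357%, S2-NDCterm/S2-Dl set against S2/S2-Dl 0.107% and S2-NFull/S2-DlDI set against S2/S2-DlDI 0.208%. The interactions had 0.0213% with NFull and 0.0107% with NDCterm. The 4 unadjusted p below 0.05 were those of upd2 in S2/S2-Dl, of et in S2/S2-DlDI and S2/S2-NDCterm, each against S2/S2, and of upd2 in the NFull interaction. The shares of all probe sets with such a p were 12.2%, 7.79%, 9.47% and 5.21%. In the comparisons where no member had such a p, the share over all probe sets was 8.32% for S2/S2-Dl against S2/S2-DlDI, 6.84% for S2-NFull/S2 against S2/S2, and 7.63% for S2-NDCterm/S2-Dl set against S2/S2-NDCterm. It was 9.52% for S2-NFull/S2-Dl and 3.50% for S2-NFull/S2-DlDI, each set against S2-NFull/S2, and 7.22% between these mixes. It was 9.29% for S2-NFull/S2-Dl and 7.17% for S2-NDCterm/S2-Dl, each set against S2/S2-Dl, 5.72% for S2-NFull/S2-DlDI set against S2/S2-DlDI, and 3.46% for the NDCterm interaction. The members' 4 of 84 was below most of these shares.

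Groups without overlap were common in these small mixes. For S2-NDCterm/S2-Dl set against S2/S2-NDCterm, with 2 samples each, 4 of the 6 genes did not overlap (upd1, upd2, et and Stat92E), and 44.0% of all probe sets did not either. Stat92E read 1295 and 1434 in S2-NDCterm/S2-Dl, against 1076 and 1292 in S2/S2-NDCterm, nearly touching. In the other comparisons the members without overlap were 1 in S2/S2-DlDI against S2/S2 (21.3% of all probe sets), 2 in S2/S2-Dl against S2/S2-DlDI (26.7%), 2 in S2/S2-NDCterm against S2/S2 (23.3%) and 2 in S2-NDCterm/S2-Dl set against S2/S2-Dl (27.0%).

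The median change of the 6 genes in S2/S2-Dl against S2/S2 was -0.06, beside -0.05 over all probe sets, with 2 of 6 positive. For S2-NDCterm/S2-Dl set against S2/S2-NDCterm 3 of 6 were positive, and both medians were 0.01. For S2-NFull/S2-Dl set against S2/S2-Dl all 6 changes were negative, with a median of -0.13 beside 0.02 over all probe sets. All 6 rest on the same single S2-NFull/S2-Dl sample, and upd1, et and TotC lay under 32 on every array. The share of negative changes over all probe sets was not counted, so this common sign is description only.

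Of 20 other pathway genes in a list of regulators and targets, 13 had a probe set that names them alone. upd3, hop, Socs36E, TotA, TotM, TotX and Tep1 are not analysed here. None of the 13 passed in any of the 14 comparisons, neither higher nor lower. Among the regulators, the SOCS gene Socs44A (449 to 658 in the 15 samples), Ptp61F, a tyrosine phosphatase (313 to 452), ken, a repressor that binds STAT sites (415 to 716), and Su(var)2-10, the PIAS protein of the fly (154 to 284), had clear signals. Socs16D was lower, at 41.7 to 84.8, and apt at 13.6 to 55.7. Among the targets, zfh1 (612 to 963) and chinmo (93.1 to 198) were clearly measured, and the Turandot genes TotB, TotE, TotF and TotZ were mostly below 32, as TotC was. These ranges are those of the brightest probe set of each gene. The dimmest of 3 chinmo probe sets read 0.818 to 19.3, and a second probe set of Socs16D read 0.339 to 9.89.

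With the brightest probe set standing for each gene, ken and vir-1 had the lowest adjusted p and are named here after their values were seen. A dimmer second probe set of Su(var)2-10 had a lower one, a limma adjusted p of 0.0733 in S2/S2-Dl against S2/S2. ken read 664 in both S2-NDCterm/S2-Dl samples, against 415 and 504 in S2/S2-NDCterm, a log2 change of 0.51 ± 0.13 (SE; limma adjusted p = 0.153). The S2/S2-NDCterm samples were the lowest of all 15, and against S2/S2 (631, 596 and 588) the change was -0.38 (limma adjusted p = 0.313). vir-1, a gene induced by virus infection through JAK/STAT in flies, read 3579, 3569 and 5283 in S2/S2-Dl, against 1071, 2867 and 3260 in S2/S2. Its log2 change was 0.91 ± 0.31 (SE; limma adjusted p = 0.230), and it was 0.41 without S2/S2 replicate 1, the lowest sample (limma adjusted p = 0.227), 1.11 without replicate 2 (0.174) and 1.20 without replicate 3 (0.0797).

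**Figure D3:**
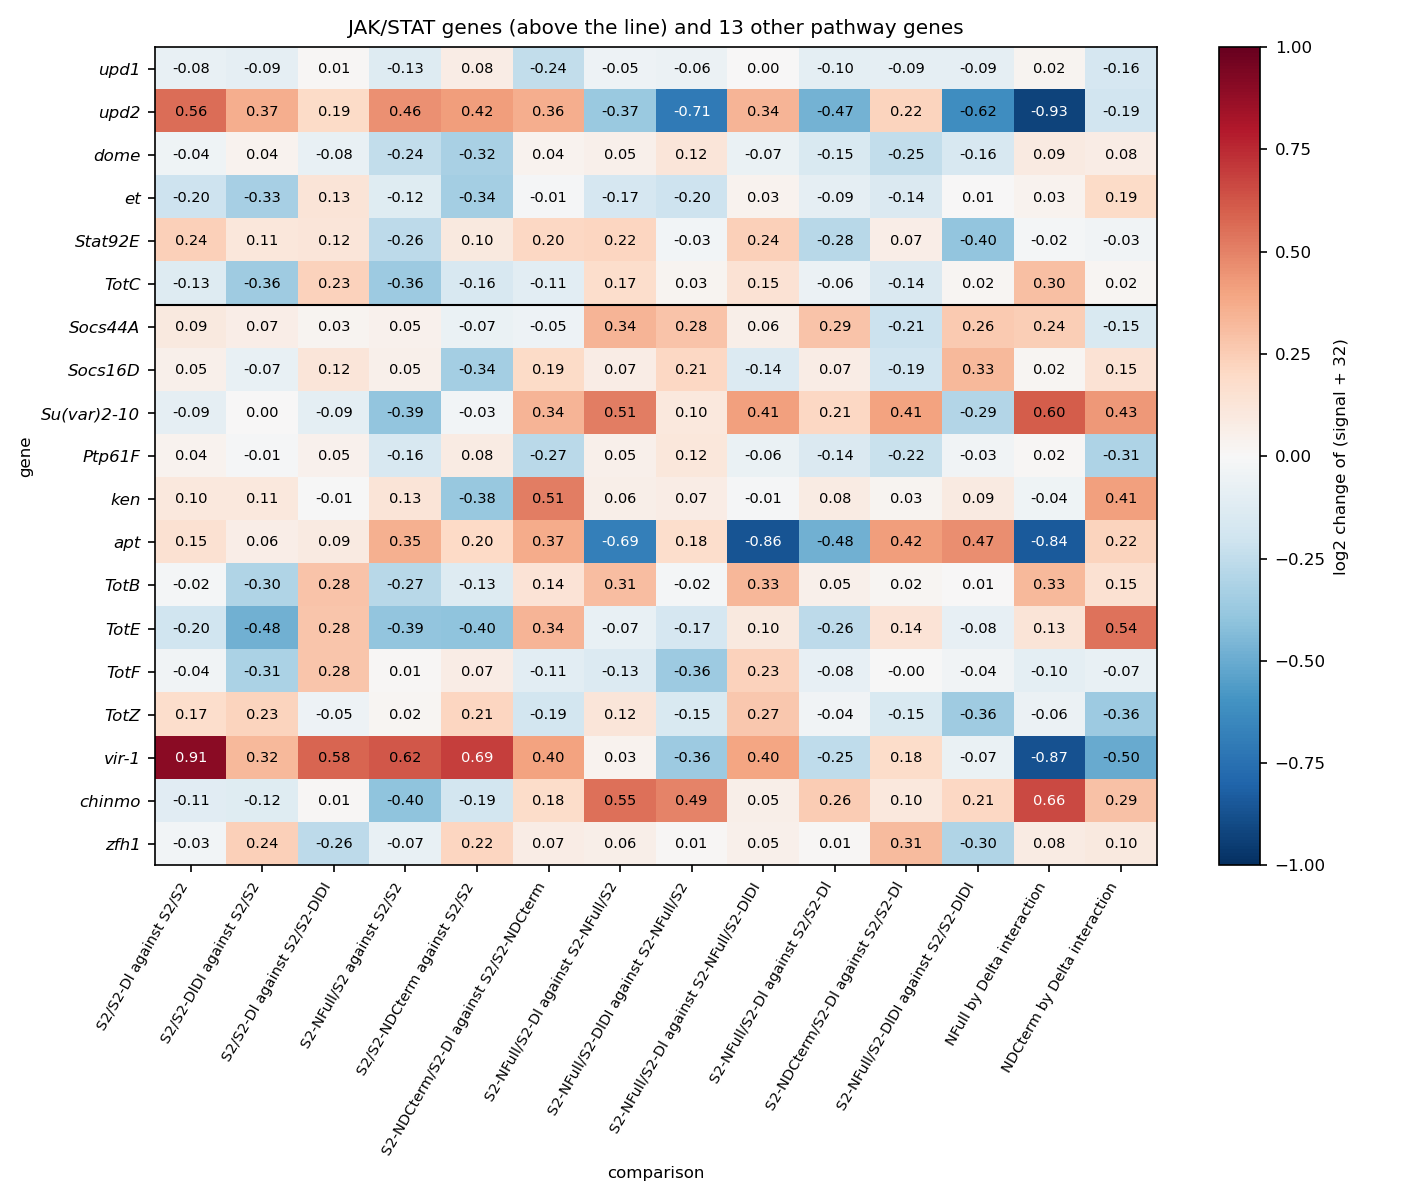
Log2 change of signal + 32 for the 6 JAK/STAT genes above the line and 13 other pathway genes below it (rows) in 14 comparisons (columns). Red is higher and blue lower in the mix named first (for an interaction, in the difference beside the Notch line), and no cell passed the test, including the 0.91 of vir-1 in S2/S2-Dl against S2/S2.

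Only upd2 had mix means that spanned at least 1 on the log2 scale (1.03). The genes with the nearest pattern over the 8 mix means, after centring each gene on its own mean, were pxb (root mean square difference 0.14), gce (0.15) and CG11007 (0.15). Their mean signals were 21.6, 24.6 and 187. The likeness rests on 8 means, of which 3 come from a single sample, and for pxb and gce on signals in the same low range as upd2.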

How the data were processed

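The authors deposited 1 table of linear intensity values, 1 per probe set and array, for 24 arrays. Their software and its settings are not given in the sources used here. A 2%-trimmed mean gave 150.004 to 150.005 on every array, and this scaling was kept. From these values log2(signal + 32) was computed for 18769 probe sets, after leaving out 183 control probe sets, with no filter on low values. No detection calls were used here, so precision is limited by the number of arrays and, at low signals, by background.

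An array pair of a shared title was averaged only if its log2 difference had an SD below that of 9 pairs of separate replicates (0.213 to 0.486) and a Delta difference of at most 0.483. This kept 1 of 5 pairs. With limma 3.58.1 in R 4.3.3, 1 linear model with a moderated spread and mean trend (7 residual degrees of freedom) covered 15 samples. Calls needed an adjusted p below 0.05, with Benjamini-Hochberg adjustment over all probe sets of a comparison. A mix with 1 sample borrows the spread of the others. Residuals of the same replicate number correlated at 0.665, 0.421 and 0.523 between S2/S2-Dl and S2/S2, so the numbers pair these samples. Pairs of other mixes shared 2 numbers at most. Of these, S2/S2-DlDI correlated at 0.312 and 0.405 with S2/S2 and at 0.321 and 0.335 with S2/S2-Dl. The rest lay between -0.07 and 0.13. The main model did not use the replicate numbers, and the block was an alternative.

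The rule for naming genes covered the 6 members and called genes of a fixed pathway list. It also covered the 3 genes nearest in pattern to a member whose mix means span at least 1. No gene of the pathway list was called in the main model, so its genes are described outside this rule. Some of them were picked after their values were seen. The members, the lists and the tests were chosen with earlier results of these data known. Promoter motifs were not searched, since no sequence was used here. The procedure was tested on simulated data. Symbols and gene order came from the RefSeq table of Release 6 plus ISO1 MT. Alternatives covered normalization, offset, a low-signal filter, the trend, array pairs with 1 title, the replicate block, the mixes in the fit and leaving out each sample.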

Additional observations from a re-analysis of the deposited data

Results flagged for a closer look

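Among the left-out arrays, upd2 signal exceeded the highest S2/S2 value of 26.4 on 2, which no comparison used. It was 34.0 on array 2 of S2-NDCterm/S2-Dl replicate 2, whose Delta signal was 13.9, and 39.7 on array 1 of S2-NFull/S2-DlDI replicate 1, whose Delta signal was 12295. Groups held at most 3 samples, so single samples were not screened for distance from the rest, and neither interaction passed for any of the 6 genes.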

How the results depend on the processing

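Over 22 alternatives, 12 of them leaving out a sample, the 6 genes gave 1774 values, of which 1 was called. The number of called members in S2/S2-Dl against S2/S2 was 0 to 1 when samples were left out in turn, with upd2 called without S2/S2 replicate 2. It was 0 in every other alternative that could be fitted, in all 14 comparisons. With the replicate block no member was called, and upd2 in S2/S2-Dl against S2/S2 had a log2 change of 0.56 (limma adjusted p = 0.160). Of the 1774 values 70 had the other sign than the value reported, and in 2 of these both values exceeded 0.1 in size. The filter on low signals kept 6033 probe sets and only dome and Stat92E among the members. Fits on the compared mixes alone were not possible where each mix held 1 sample. Of 3881 such values of the other pathway genes 1 was called, ken in S2-NDCterm/S2-Dl set against S2/S2-NDCterm with only array 1 of each shared title (0.52, limma adjusted p = 0.0362). Calls over all probe sets moved more, and the cause was not tested. Against S2/S2 they were 245 for S2/S2-Dl (77 to 540 over the alternatives), 14 for S2/S2-DlDI (4 to 25), 34 for S2-NFull/S2 (11 to 174) and 31 for S2/S2-NDCterm (5 to 293). Against S2/S2-DlDI they were 120 for S2/S2-Dl (46 to 251) and 39 for S2-NFull/S2-DlDI (1 to 605), and S2-NDCterm/S2-Dl set against S2/S2-NDCterm had 92 (0 to 234). Against S2-NFull/S2 they were 55 for S2-NFull/S2-Dl (25 to 131) and 4 for S2-NFull/S2-DlDI (4 to 25), with 40 (4 to 105) between these mixes. Against S2/S2-Dl they were 67 for S2-NFull/S2-Dl (4 to 125) and 20 for S2-NDCterm/S2-Dl (4 to 227). The interactions had 4 with NFull (1 to 7) and 2 with NDCterm (1 to 4). Signals near background limit upd1, et and TotC, and 3 mixes rest on 1 sample.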

Other observations

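The 8 left-out arrays gave Stat92E values that differ within a title, listed with their Delta signal and no test. S2-NFull/S2-DlDI replicate 1 read 1168 on array 1 (Delta 12295) and 750 on array 2 (Delta 156). Replicate 3 of that mix read 1147 on array 1 (Delta 11031) and 855 on array 2 (Delta 1.67). In S2-NDCterm/S2-Dl replicate 2 the order was the other way, with 1071 on array 1 (Delta 11382) and 1187 on array 2 (Delta 13.9). S2-NFull/S2 replicate 1 read 818 and 1036, both with low Delta (6.60 and 18.4).

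Su(var)2-10, the SUMO ligase that restrains STAT in flies, has a pair of probe sets that differed from each other, a gene chosen after its values were seen. Its brighter probe set read 233 with Delta cells added to NFull cells, against 154 with plain S2 cells added to them (1 sample each), a log2 change of 0.51 (limma adjusted p = 0.444). The dimmer probe set read 72.6 and 109 in the same samples, a log2 change of -0.43 (limma adjusted p = 0.545). In S2/S2-Dl the dimmer probe set read 101 ± 3.56, against 154 ± 7.46 in S2/S2 (SD, n = 3 each), a log2 change of -0.48 (limma adjusted p = 0.0733). The brighter one had a log2 change of -0.09 there. Neither passed in any of the 14 comparisons.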
